A study of Mus musculus with 15 samples.

Results

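The genes described here encode the subunits of heterotrimeric G proteins and the regulators of G protein signalling (RGS) that shorten their signal. They were taken from the deposited count table by symbol alone: the alpha subunits Gnai1, Gnai2, Gnai3, Gnao1, Gnaz, Gnas, Gnal, Gnaq, Gna11, Gna12, Gna13, Gna14 and Gna15, the beta subunits Gnb1 to Gnb5, and every symbol made of Gng or Rgs and a number. The rule found 49 of 35976 listed genes, which were 13 alpha, 5 beta and 10 gamma subunits and 21 RGS genes. RNA was sequenced from nuclei of the ventral tegmental area (VTA) of male mice aged 8 to 12 weeks, heterozygous for DAT-Cre (B6.SJL-Slc6a3tm1.1(cre)Bkmm/J, with Cre at the dopamine transporter gene). A virus injected into the VTA, AAV5-DIO-KASH-HA, put an HA tag on the nuclear envelope of cells with Cre. All mice carried Cre and virus and had 7 days of lever training for food. Nuclei sorted as HA-positive are called dopaminergic and those sorted as HA-negative non-dopaminergic, and each sample pooled the VTA of 2 mice. HA-negative nuclei hold all other cells of the tissue, and dopaminergic cells that took up no virus cannot be told apart from them. There were 4 dopaminergic libraries from mice at the end of food training, 3 from mice at the end of cocaine maintenance and 4 from mice after abstinence, which the labels call craving, and 4 non-dopaminergic libraries from food-trained mice. Cocaine was self-administered by vein in 1-hour sessions, first for 5 days with 0.3 mg/kg in each infusion and then for 10 days with 1.0 mg/kg, and abstinence was 21 further days in the home cage. Age, surgery and time since training differed with the stage and cannot be told apart from it here, and the labels do not say whether libraries of a group came from separate cohorts, so p-values measure the spread between these pools.

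A G protein couples a receptor in the membrane to enzymes and channels inside the cell. The alpha subunit binds GTP when a receptor is active and separates from the beta-gamma pair: Gi/o alpha subunits lower cyclic AMP, Gs alpha subunits raise it, and Gq alpha subunits drive phospholipase C, while free beta-gamma pairs open GIRK potassium channels and slow calcium channels. RGS proteins make the alpha subunit hydrolyse its GTP faster and so end the signal. In dopamine neurons the D2 autoreceptor works through Gi/o and beta-gamma to slow firing and release, and RGS proteins of the R7 family, which are stable only in complex with the atypical beta subunit Gnb5, are known regulators of that route in dopaminergic circuits.

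Total counts ranged from 25813697 to 59046618 per library, and the 49 genes took 0.176% to 0.256% of them. The label of the sorted nuclei was checked with 17 dopamine neuron markers, whose summed level was 6933 to 12822 CPM (counts scaled to a common library total, with TMM factors) in the 4 food-trained dopaminergic libraries and 498 to 703 in the 4 non-dopaminergic ones. Markers of glia and vessels were present in the dopaminergic libraries too, at a lower level: 13 oligodendrocyte genes summed to 1827 to 2882 against 9727 to 23295 CPM, 12 microglia genes to 625 to 1303 against 2208 to 4837 CPM and 8 mural cell genes to 20.9 to 76.6 against 249 to 444 CPM. The gap was smaller for 12 astrocyte genes, at 1860.5 to 2315 against 2476 to 4731 CPM. The populations overlapped for 3 GABA neuron genes (163 to 219 against 191 to 259 CPM) and 3 glutamate neuron genes (169 to 676 against 375 to 642 CPM). The dopaminergic libraries detected fewer genes, 14841 to 19750 against 22733 to 23886, and 33 to 44 of the 49 genes against 46 to 47. Food-trained dopaminergic replicates 2 and 3 detected the fewest genes of the whole set (15415 and 14841). A line fitted to log2 CPM against the GC content of transcripts had its lowest slope in the 3 maintenance libraries and in non-dopaminergic replicate 2, at -0.0378, -0.0226, -0.0380 and -0.0247 per percent GC, against -0.0167 to 0.0326 in the other 11. In what follows, values of single libraries stand in the order of replicates 1 to 4, or 1 to 3 for maintenance.

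The promoters of 3 of the genes that passed the threshold between the nuclear populations are shown first, because the products of Gnb1 and Gng3 can form a beta-gamma pair and Gng8 had no count in the food-trained dopaminergic libraries. The windows are the 250 bases before the RefSeq start on GRCm38.p6, written 5′ to 3′ on the strand of the gene, and capitals mark matches to the GC box GGGCGG or its reverse complement CCGCCC. Gng3 lies on the minus strand (chr19:8839247-8839496), Gnb1 on the plus strand (chr4:155491111-155491360) and Gng8 on the plus strand (chr7:16891536-16891785).
Gng3: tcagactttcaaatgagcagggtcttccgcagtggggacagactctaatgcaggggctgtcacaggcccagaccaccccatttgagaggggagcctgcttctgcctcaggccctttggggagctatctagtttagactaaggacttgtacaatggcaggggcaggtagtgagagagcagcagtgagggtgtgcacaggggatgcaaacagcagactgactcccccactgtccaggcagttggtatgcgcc
Gnb1: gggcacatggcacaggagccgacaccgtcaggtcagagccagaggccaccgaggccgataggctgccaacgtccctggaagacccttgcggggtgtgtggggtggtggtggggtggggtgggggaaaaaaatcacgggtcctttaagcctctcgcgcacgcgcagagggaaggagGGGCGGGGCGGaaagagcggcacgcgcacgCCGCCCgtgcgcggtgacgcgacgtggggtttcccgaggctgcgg
Gng8: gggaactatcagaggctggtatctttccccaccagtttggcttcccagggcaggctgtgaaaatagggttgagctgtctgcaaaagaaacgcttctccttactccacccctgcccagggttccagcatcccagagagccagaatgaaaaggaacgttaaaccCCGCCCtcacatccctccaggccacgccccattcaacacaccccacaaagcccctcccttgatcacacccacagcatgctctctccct
The Gnb1 window held 26 CpG dinucleotides and 3 GC box matches, of which the first pair overlap by 1 base. The Gng3 window held 2 CpG and no GC box, and the Gng8 window 4 CpG and 1 GC box match. The corresponding window of Gnao1 held 36 CpG. Over the 32851 RefSeq windows of this length, 32.7% held a GC box on either strand, against 25 of the 50 windows of the 37 genes with an entry. None of the 50 held the NR4A response element AAAGGTCA, which 1.34% of all windows hold, or the cyclic AMP response element TGACGTCA, which 1.55% hold. The bicoid-type PITX motif TAATCC was in 2 of the 50 (6.25% of all windows) and the TATA box TATAAA in 8 (12.4%). These are matches of letters on both strands and were not tested as binding sites.

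Dopaminergic and non-dopaminergic nuclei of food-trained mice had the same leading beta and R7 RGS genes per length, Gnb1 and Rgs11, and differed in the level of a few genes. In dopaminergic nuclei Gng3, Gnb1 and Rgs11 were higher and Gnao1 was lower, and Gnb3, Gng8 and Rgs14 were at 0 counts there and detected in non-dopaminergic nuclei. These 7 of 45 genes tested (15.6%) passed a Benjamini-Hochberg adjusted p of 0.05 with edgeR's quasi-likelihood test. Of all 19786 genes tested, 12.8% passed (3.63% higher and 9.17% lower), so that the share among G protein and RGS genes lay near that of all genes. Gnb3, Gng8 and Rgs14 passed the filter on low counts only through the non-dopaminergic libraries and so had to differ: all 1122 tested genes at or under 3 counts in each food-trained dopaminergic library passed. Without such genes 4 of 42 (9.52%) passed, against 7.57% of all genes. DESeq2 called 8 of them (3883 of all genes), with Gng5 in addition, and limma-voom 7 (4266 of all genes), with Gna15 and Rgs22 in place of Gnb1 and Rgs11. At an unadjusted p under 0.05 in edgeR there were 8 (17.8%), against 24.3% of all genes. The median log2 fold change of the 45 was -0.20, against -0.21 over all genes, and 18 of them (40%) were above 0, against 41.7% of all genes. Rgs1, Rgs13, Rgs18 and Rgs21 had too few counts to be tested. In 13 of the 45 genes the libraries of the 2 populations did not overlap, 4 higher and 9 lower in dopaminergic nuclei, a share of 28.9%, against 25.9% of all genes (6.87% higher and 19.1% lower). Below, a log2 change is the log2 fold change fitted by edgeR, and a gene that passed has an adjusted p under 0.05. Fewer cells of a type and less RNA per cell cannot be told apart in such bulk samples.

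**Figure D1:**
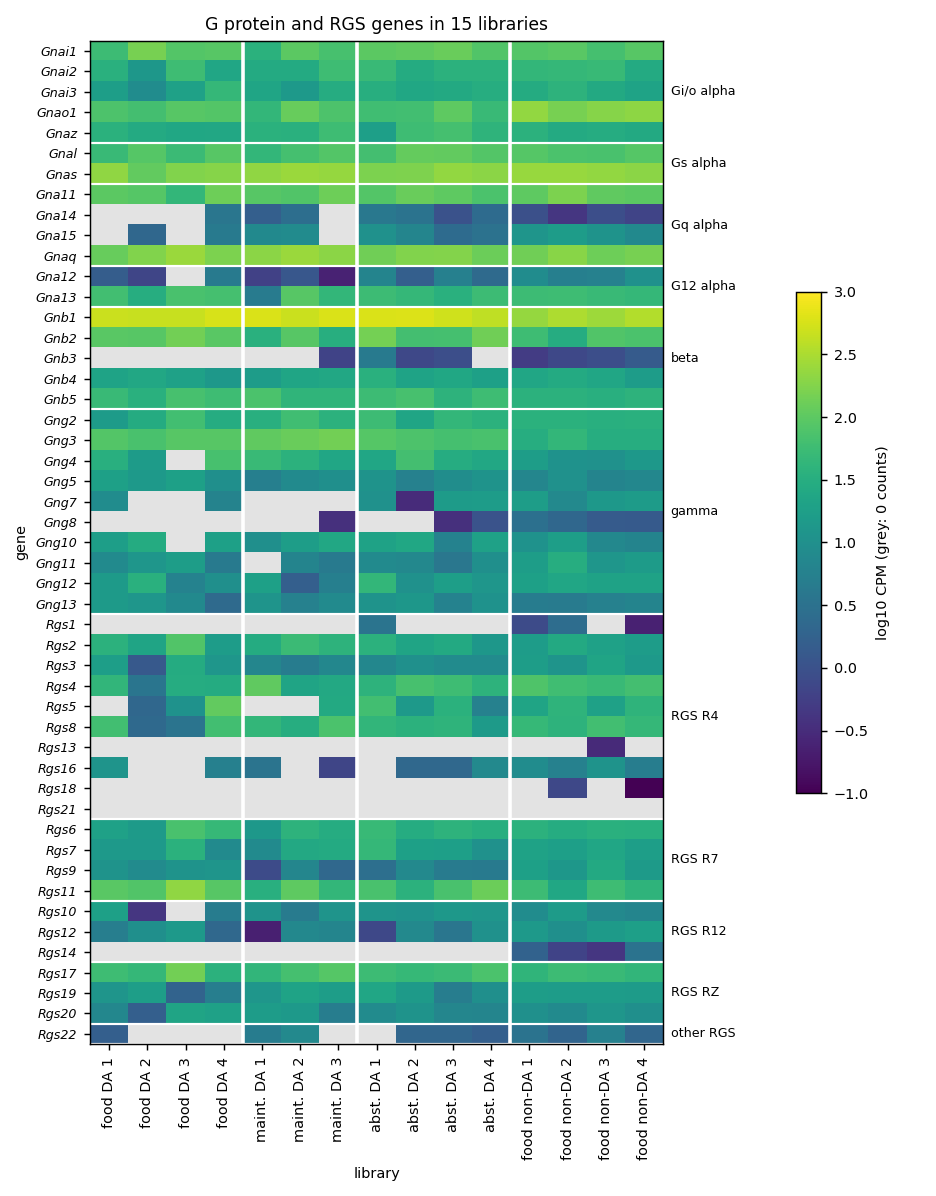
Level of each of the 49 genes (rows, grouped by family) in each of the 15 libraries (columns), as log10 CPM by colour, with grey where a library had 0 counts. Gnb1 had the highest mean in all 4 groups, though Gnas (239 CPM) stood above it (229 CPM) in non-dopaminergic replicate 1. Rgs14 was grey in all 11 dopaminergic libraries.

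Among the Gi/o alpha subunits, which carry the inhibitory signal of D2, opioid and GABA-B receptors, Gnao1 separated the populations. It stood at 77.2, 63.3, 91.0 and 83.6 CPM in food-trained dopaminergic libraries and at 222, 152, 190.2 and 207 CPM in non-dopaminergic ones. The groups did not overlap, and the level was lower in dopaminergic nuclei, 78.8 ± 11.8 against 193 ± 30.3 CPM (SD, n = 4 each), with a log2 change of -1.32 (SE 0.19) and an edgeR adjusted p of 0.00670. Its call held in each of the 8 fits that left out 1 library. Gnai1, which inhibits adenylyl cyclase, did not pass: it stood at 55.2, 153, 84.0 and 90.8 CPM in dopaminergic and 86.3, 94.5, 66.4 and 91.4 CPM in non-dopaminergic libraries, with a log2 change of 0.15 (SE 0.30) and an edgeR adjusted p of 0.822. The libraries of both populations overlapped, and food-trained dopaminergic replicate 2 was the highest of all. Gnai2, the broadly expressed member, stood at 34.3, 13.3, 56.6 and 23.1 against 43.8, 46.0, 49.7 and 27.5 CPM, also with overlap (log2 change -0.42, SE 0.43, edgeR adjusted p 0.639). Gnai3, close in sequence to Gnai1, and Gnaz, whose product hydrolyses GTP slowly, had edgeR adjusted p of 0.742 and 0.814.

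Levels of different genes were compared per transcript length, as CPM per kilobase of the longest GENCODE M21 transcript. On this scale Gnai1 led the family in dopaminergic nuclei, at 30.5, before Gnai2 at 14.4 and Gnao1 at 14.3 CPM per kb, and Gnao1 led in non-dopaminergic nuclei, at 34.9 against 27.0 for Gnai1. With the summed length of all annotated exons in place of the longest transcript, Gnai1 led in both, at 27.0 against 17.4 CPM per kb for Gnao1 in non-dopaminergic nuclei. In dopaminergic nuclei Gnao1 then stood at 7.13, behind Gnai2 (8.42) and Gnaz (7.78). The order thus depends on the length used, and the shares that follow rest on the longest transcript. As a share of the summed Gi/o level per length, Gnao1 made up 19.4% ± 3.18 in dopaminergic and 35.6% ± 5.28 in non-dopaminergic libraries (SD, n = 4 each). The range was 14.9% to 22.4% against 28.0% to 40.3%. Across the stages the share of Gnao1 was 19.7% ± 6.13 at maintenance (n = 3) and 14.6% ± 2.60 at abstinence (n = 4).

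The Gs, Gq and G12 alpha subunits gave no call by edgeR between the populations, where 12.8% of all genes passed. Gnas, the widely expressed Gs alpha gene, stood at 220.5, 109, 172 and 187 CPM in dopaminergic and 239, 243, 225 and 204 CPM in non-dopaminergic libraries (log2 change -0.43, SE 0.22, edgeR adjusted p 0.292). Gnal, which encodes the olfactory-type Gs alpha that couples D1 receptors in striatum, stood at 51.7, 88.2, 54.0 and 92.1 against 88.6, 73.7, 72.3 and 89.1 CPM (log2 change -0.20, SE 0.24, edgeR adjusted p 0.700). Both overlapped between the populations, and Gnas shares 13.1% of its exon bases with Gm20721 and 8.83% with Nespas on the opposite strand, whose reads cannot be told apart without strand. Of the Gq pair that drives phospholipase C in neurons, Gnaq stood at 116, 175, 253 and 164 against 138, 192, 129 and 150.1 CPM (log2 change 0.20, SE 0.25, edgeR adjusted p 0.722). Gna11 stood at 99.7, 87.0, 44.6 and 129 against 100.3, 159.7, 106 and 97.2 CPM (log2 change -0.38, SE 0.32, edgeR adjusted p 0.551). Both overlapped between the populations. Per length, Gnaq and Gna11 stood in dopaminergic nuclei at 31.4 and 26.4 CPM per kb, and far above Gna15 (0.836) and Gna14 (0.279). Gna15, known from blood cells, did not overlap between the populations, at 0, 2.17, 0 and 4.39 against 12.1, 16.3, 11.5 and 8.04 CPM, but missed the threshold (edgeR adjusted p 0.352), where limma-voom called it (adjusted p 0.0399), and moved with the microglia markers given above, whose part in it was not tested. Gna13, of the G12 family, stood at 60.9, 31.5, 69.9 and 66.6 against 54.9, 58.1, 52.3 and 45.7 CPM (log2 change 0.09, SE 0.27, edgeR adjusted p 0.882). Gna12 was lower without overlap, at 1.52, 0.694, 0 and 4.37 against 8.83, 5.38, 5.66 and 10.4 CPM, and also missed it (log2 change -2.21, SE 1.32, edgeR adjusted p 0.361), and it shares 13.3% of its exon bases with Amz1 on the opposite strand.

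Gnb1, the main beta subunit of brain, had the highest level per length of all 49 genes in each of the 4 groups, at 155 CPM per kb in food-trained dopaminergic and 91.5 in non-dopaminergic nuclei. It stood at 475, 454, 456 and 564 CPM in dopaminergic and 229, 322, 256 and 343 CPM in non-dopaminergic libraries. The groups did not overlap, and Gnb1 was higher in dopaminergic nuclei, with a log2 change of 0.74 (SE 0.19) and an edgeR adjusted p of 0.0336. The call was lost without food-trained dopaminergic replicate 1 or 4 or non-dopaminergic replicate 1 or 3, with edgeR adjusted p of 0.0516, 0.0584, 0.106 and 0.0863. It was also lost with limma-voom (adjusted p 0.0574) and with a term for the replicate number (edgeR adjusted p 0.0546). Gnb2, a close relative, was likewise without overlap, at 94.4, 90.7, 141 and 93.2 against 57.6, 30.3, 82.7 and 72.7 CPM, but did not pass (log2 change 0.76, SE 0.32, edgeR adjusted p 0.181). Gnb5, the partner of the R7 RGS proteins, stood at 51.9, 34.0, 67.4 and 56.4 against 37.4, 36.8, 34.0 and 39.2 CPM and did not pass (log2 change 0.49, SE 0.24, edgeR adjusted p 0.270). Gnb4 had an edgeR adjusted p of 0.761. Gnb3, the beta subunit of cones and taste cells, had 0 counts in all 4 dopaminergic libraries and 25, 35, 40 and 65 counts in the non-dopaminergic ones. With a floor of 3 counts per library it was at least 11.2-fold lower in dopaminergic nuclei (edgeR adjusted p 0.00670). The call of Gnb3 was lost with all 15 libraries in one fit (edgeR adjusted p 0.0628) and with a term for the replicate number.

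The gamma subunits are small lipid-anchored partners of beta, and Gng3 led them per length in all 4 food-trained dopaminergic libraries. In non-dopaminergic nuclei Gng3 and Gng11 were close, at 20.9 and 20.6 CPM per kb, with Gng11 the higher in replicate 2. Gng3, a neuronal gamma subunit, stood at 84.2, 72.3, 92.3 and 90.5 CPM in food-trained dopaminergic and 31.1, 44.7, 30.9 and 30.8 CPM in non-dopaminergic libraries. All 4 dopaminergic libraries lay above all non-dopaminergic ones, with a log2 change of 1.28 (SE 0.20) and an edgeR adjusted p of 0.00670, and the call held in each fit that left out 1 library. Gng3 took 43.5% ± 6.98 of the summed gamma level per length in dopaminergic and 24.6% ± 1.42 in non-dopaminergic nuclei (SD, n = 4 each), with no overlap of libraries. A limit is that 24.2% of the annotated exon bases of Gng3 are shared with Bscl2, the seipin gene on the opposite strand, and whether counting used strand is not given in the sources used here. Bscl2 was also higher in dopaminergic nuclei, at 382 ± 43.6 against 211 ± 43.2 CPM, a log2 change of 0.84 (SE 0.20) with an edgeR adjusted p of 0.0232. The part of shared reads in the Gng3 level was not tested.

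Gng8, found in olfactory and vomeronasal neurons and in the habenula, had 0 counts in the 4 food-trained dopaminergic libraries and 147, 104, 62 and 63 counts in the non-dopaminergic ones. It was at least 25.1-fold lower (edgeR adjusted p 0.00670). This call was built in, since Gng8 passed the filter on low counts only through the non-dopaminergic libraries. Gng8 lost its call with all 15 libraries in one fit (edgeR adjusted p 0.0540) and with a term for the replicate number. Gng10, second to Gng3 per length in dopaminergic nuclei, stood at 17.6, 29.4, 0 and 18.6 against 10.8, 17.3, 7.39 and 6.30 CPM (log2 change 0.63, SE 1.25, edgeR adjusted p 0.829). It shares 72% of its exon bases with the gene model Gm20503 on the same strand, so its counts are uncertain, and Gng13 shares 51.6% with Chtf18 and Gng2 20.4% with Gm48283, both on the opposite strand. Gng7, the gamma subunit that pairs with Gnal in striatal neurons, stood at 8.80, 0, 0 and 6.09 against 17.1, 7.72, 13.6 and 15.8 CPM, with 2 dopaminergic libraries at 0 counts (edgeR adjusted p 0.570). Gng11, which is known from endothelial cells, stood at 8.35, 12.5, 16.6 and 4.50 against 16.5, 30.9, 12.6 and 15.7 CPM (log2 change -0.87, SE 0.51, edgeR adjusted p 0.356). Between the populations the 8 endothelial markers moved the same way, with a sum of 4.58 to 72.8 CPM in dopaminergic and 80.2 to 133 CPM in non-dopaminergic libraries. Among the dopaminergic libraries the sums were 4.58, 11.8, 17.6 and 72.8 CPM. Replicate 4, with the highest sum, had the lowest Gng11 level, while both rose from replicate 1 to 3. The part of these markers in the result was not tested. The other gamma genes tested, Gng2, Gng4, Gng5, Gng12 and Gng13, did not pass with edgeR either, with adjusted p of 0.969, 0.664, 0.216, 0.782 and 0.552. DESeq2 called Gng5 (adjusted p 0.0322).

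**Figure D2:**
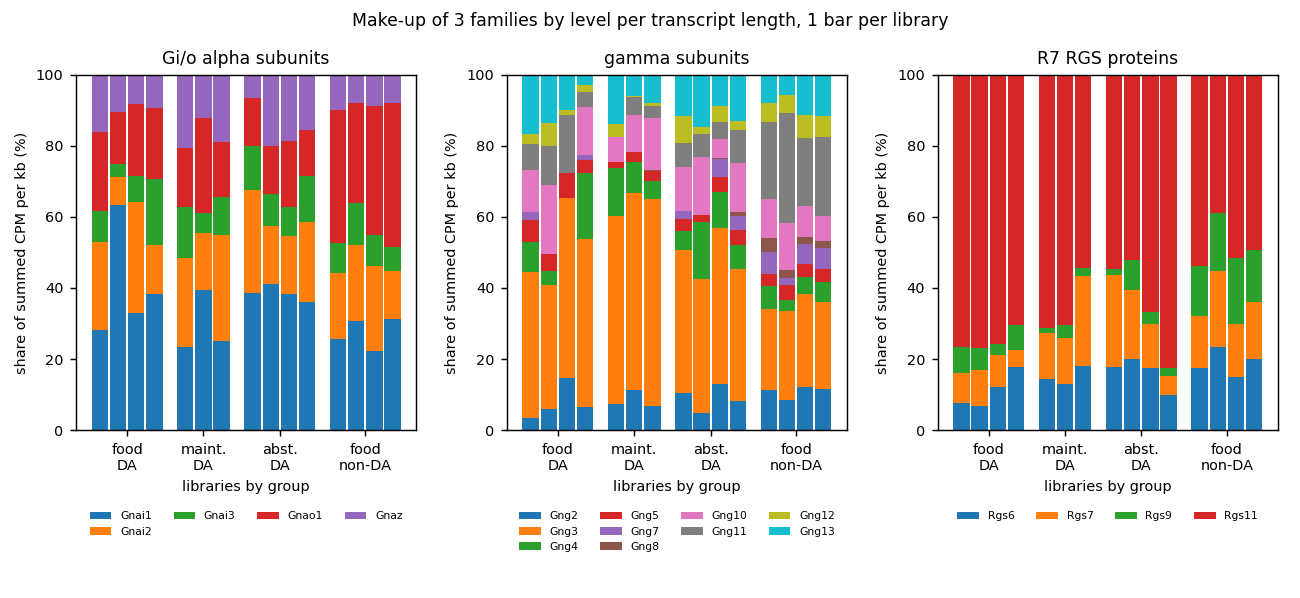
Make-up of the Gi/o alpha, gamma and R7 RGS families in each library, as each gene's share of the family's summed CPM per kilobase of transcript (%), 1 bar per library. Rgs11 took 70.3% to 76.8% of the R7 level in food-trained dopaminergic libraries and 38.9% to 53.7% in non-dopaminergic ones.

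Of the R7 RGS genes, whose products act on Gi/o alpha in complex with Gnb5, Rgs11 was the most abundant per length in every group, at 44.8 CPM per kb in food-trained dopaminergic nuclei before Rgs6 (6.93), Rgs7 (4.89) and Rgs9 (3.12). Rgs11 stood at 93.9, 81.6, 217 and 92.1 CPM in dopaminergic and 55.1, 24.2, 57.3 and 39.4 CPM in non-dopaminergic libraries. The groups did not overlap, but replicate 3 stood far above the other dopaminergic libraries. Rgs11 was higher in dopaminergic nuclei with a log2 change of 1.43 (SE 0.40) and an edgeR adjusted p of 0.0450, the call nearest to the threshold. It was lost in 6 of the 8 fits that left out 1 library: without food-trained dopaminergic replicate 1 (0.0504) or 3 (0.0507), and without non-dopaminergic replicate 1 (0.0726), 2 (0.0911), 3 (0.0635) or 4 (0.120). It was also lost with all 15 libraries in one fit (edgeR adjusted p 0.0523), with every gene of at least 1 count tested (0.0541), without food-trained dopaminergic replicates 2 and 3 (0.0641) and with limma-voom (0.0733). The log2 fold change in the 8 fits without 1 library ran from 1.02 to 1.62. As a share of the R7 level per length, Rgs11 made up 74.9% ± 3.09 in dopaminergic and 48.3% ± 6.54 in non-dopaminergic nuclei (SD, n = 4 each), while Rgs9, known for ending D2 signals in striatum, made up 3.10% to 7.28% and 14.2% to 18.6%. The CPM of Rgs9 was lower without overlap, at 11.2, 8.39, 11.4 and 12.2 against 18.6, 13.1, 26.6 and 15.1 CPM, and missed the threshold (log2 change -0.79, SE 0.40, edgeR adjusted p 0.268). Rgs6, which has been linked to the survival of midbrain dopamine neurons, stood at 19.8, 15.3, 71.6 and 48.3 against 37.4, 30.3, 34.2 and 33.1 CPM, with overlap (log2 change 0.18, SE 0.47, edgeR adjusted p 0.875).

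The R4 RGS genes, which encode small proteins acting on Gi/o and Gq, spread widely between dopaminergic libraries. Between the populations 0 of the 6 tested passed, where 12.8% of all genes did, too few genes to tell the shares apart. Rgs2, which acts mainly on Gq alpha, stood at 36.7, 21.4, 81.0 and 16.3 CPM in dopaminergic and 16.3, 27.4, 19.4 and 15.997 CPM in non-dopaminergic libraries (log2 change 0.95, SE 0.50, edgeR adjusted p 0.298). Rgs4, a neuronal inhibitor of Gi/o and Gq signals, stood at 42.8, 3.53, 29.9 and 29.4 against 79.4, 58.7, 52.1 and 64.8 CPM, lower without overlap (log2 change -1.29, SE 0.59, edgeR adjusted p 0.220). Food-trained dopaminergic replicate 2 was the lowest of the 15 libraries. Rgs8, best known from Purkinje cells, stood at 61.7, 2.34, 3.45 and 61.3 CPM in dopaminergic libraries, with replicates 2 and 3 far under the others, and at 38.9 to 61.2 CPM in non-dopaminergic ones. Rgs5, a marker of pericytes, stood at 0, 2.20, 10.8 and 111 CPM against 21.7, 39.3, 19.7 and 40.2 CPM. Dopaminergic replicate 4, with the highest Rgs5 level, also had the highest summed mural (76.6 CPM) and endothelial (72.8 CPM) marker levels of its group, against at most 32.0 and 17.6 CPM in the other 3. Of 8 endothelial genes 5, 4, 7 and 0 had no count in the 4 libraries, and of 8 mural genes 3, 5, 5 and 1, with Pecam1, Kdr, Kcnj8 and Anpep at 0 in replicates 1 to 3. In other libraries Rgs5 did not follow the mural sum. At maintenance Rgs5 stood at 0, 0 and 26.6 CPM, with mural sums of 54.0, 45.6 and 47.6 CPM. At abstinence Rgs5 stood at 61.7, 14.0, 36.0 and 5.71 CPM, with mural sums of 31.1, 64.0, 96.0 and 40.6 CPM. The non-dopaminergic libraries, with less Rgs5 than dopaminergic replicate 4, had mural sums of 249 to 444 CPM. The part of vessel cells in the Rgs5 level was not tested. Rgs3 and Rgs16 had edgeR adjusted p of 0.947 and 0.827. Rgs1 and Rgs18, known from immune cells, and Rgs13 had at most 157 counts in any library, and Rgs21, a gene of taste cells, had 0 in all 15.

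In the R12 family Rgs14, a scaffold best known from hippocampal area CA2, had 0 counts in all 11 dopaminergic libraries. It had 89, 31, 19 and 156 counts in the non-dopaminergic libraries and was at least 19.8-fold lower in food-trained dopaminergic nuclei (edgeR adjusted p 0.0111). It passed the filter on low counts only through the non-dopaminergic libraries, so that this call was built in. Without non-dopaminergic replicate 4 the bound was 12.2-fold, and with a term for the replicate number the call was lost. Rgs10, known from microglia and neurons, stood at 18.6, 0.434, 0 and 4.76 CPM against 8.97, 15.8, 7.59 and 6.58 CPM (log2 change -0.73, SE 1.45, edgeR adjusted p 0.829). Rgs12 stood at 5.23, 9.66, 14.2 and 2.28 against 13.9, 9.90, 15.2 and 18.039 CPM (log2 change -0.89, SE 0.61, edgeR adjusted p 0.445). Neither passed, and both overlapped between the populations. The RZ genes Rgs17 and Rgs19, whose products act on Gnaz and other Gi alpha subunits, stood at 58.0, 46.7, 143 and 37.3 CPM and 12.1, 17.2, 1.87 and 5.06 CPM in dopaminergic libraries. In non-dopaminergic libraries they stood at 41.7, 55.3, 50.7 and 42.6 CPM and 16.9, 16.1, 16.5 and 15.7 CPM, which overlapped the former in both genes (edgeR adjusted p 0.473 and 0.486). Rgs20 had an edgeR adjusted p of 0.876. Rgs22, the one RGS gene outside these families, stood at 1.62, 0, 0 and 0 CPM in dopaminergic and 3.34, 1.95, 5.75 and 2.11 CPM in non-dopaminergic libraries, lower without overlap. It did not pass with edgeR (adjusted p 0.410), and limma-voom called it (adjusted p 0.00744). Rgs22, with 3 dopaminergic libraries at 0, and Gna15, with 2 at 0, needed the non-dopaminergic libraries, where they are high, to pass the filter on low counts, so nothing is read from their limma-voom calls.

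Across the stages of cocaine self-administration no G protein or RGS gene passed the threshold in dopaminergic nuclei. For maintenance against food training 0 of 44 tested genes passed, where 0.131% of all 19060 genes did, for abstinence against food training 0, where 0% did, and for abstinence against maintenance 0, where 0.178% did, by edgeR's quasi-likelihood test. At an unadjusted p under 0.05 there were 3, 2 and 3 of the 44 genes (6.82%, 4.55% and 6.82%), against 11.6%, 4.3% and 9.92% of all genes. DESeq2 called 1, 0 and 2 of them, with 894, 125 and 732 calls over all genes, and limma-voom 0 in each, with 9, 0 and 30, where edgeR had 25, 0 and 34. A joint test over all 3 stages called 0 of the 44 (0.0839% of all genes), with 3 (6.82%, against 7.85% of all genes) at an unadjusted p under 0.05. In the 3 comparisons the 44 genes had a median log2 fold change of 0.03, 0.10 and 0.20, against -0.01, 0.04 and 0.05 over all genes. Of the 44 genes, 23, 27 and 28 were above 0 (52.3%, 61.4% and 63.6%), against 49.2%, 53.1% and 52.8% of all genes. The comparisons share groups of libraries and are not independent. Stages did not overlap in 3, 1 and 5 of the 44 genes (6.82%, 2.27% and 11.4%), against 8.49%, 3.32% and 12.1% of all genes. These were Gng3 (higher), Gng5 and Rgs9 (lower) at maintenance against food training and Rgs9 (lower) at abstinence against food training. For abstinence against maintenance they were Gna12, Gng7 and Rgs3 (higher) and Gnaq and Gng3 (lower).

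**Figure D3:**
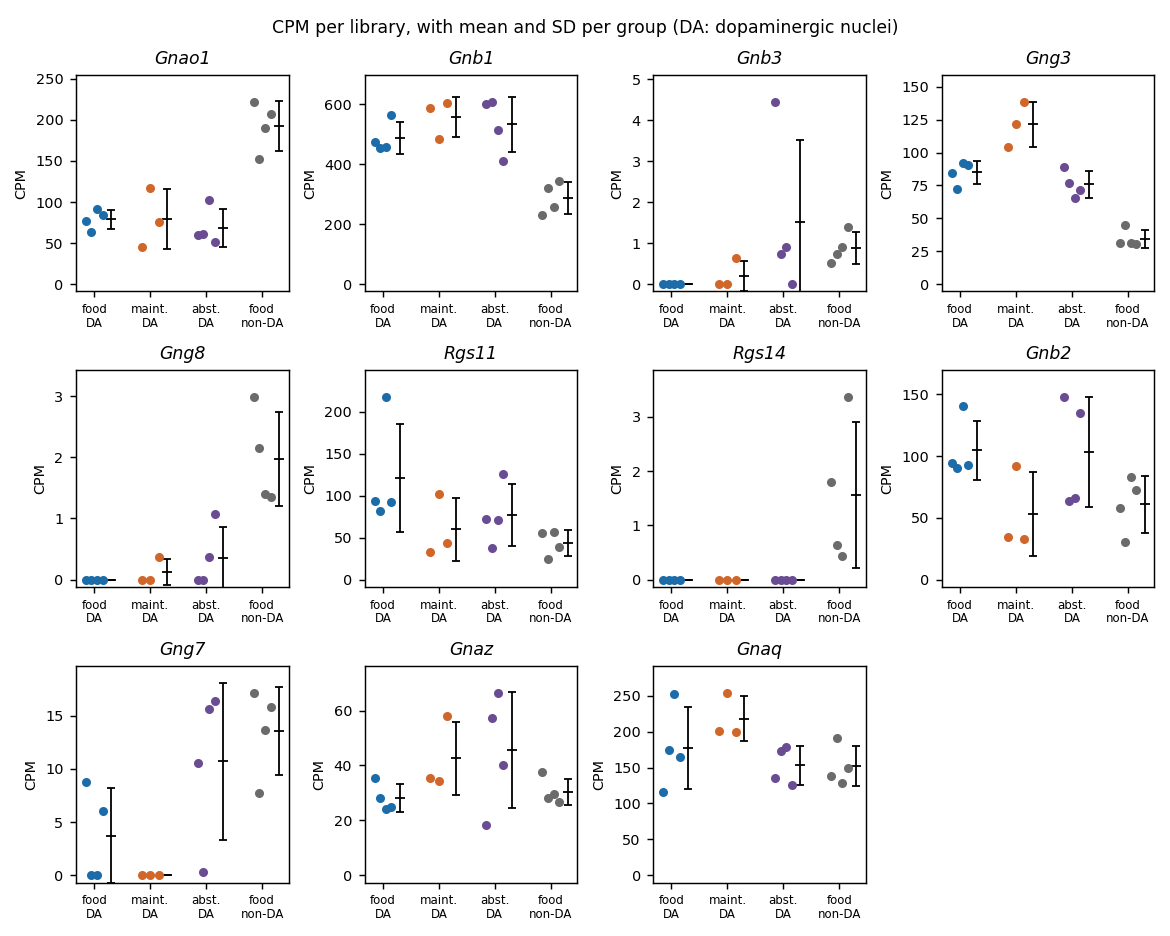
CPM of 11 genes in each library (points) by group, with the mean and SD of the group beside the points on a linear axis. The 4 food-trained dopaminergic libraries lay above all non-dopaminergic ones for Gng3, Gnb1, Gnb2 and Rgs11 and below them for Gnao1, and Gng7 was at 0 in the 3 maintenance libraries.

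The lowest p-values between stages belonged to the gamma subunits Gng7 and Gng3 and the beta subunits Gnb2 and Gnb3. Gng7 had 0 counts in the 3 maintenance libraries, 505, 0, 0 and 280 counts in the food-trained libraries and 474, 17, 859 and 675 counts at abstinence. Against the floor of 3 counts per library it was at least 143-fold higher at abstinence than at maintenance (edgeR p 0.00488, adjusted p 0.282) and at least 49.5-fold higher after food training than at maintenance (edgeR p 0.00843, adjusted p 0.308). Without food-trained replicate 1 the second bound was 27.0-fold. Food-trained and maintenance libraries overlapped, since food-trained replicates 2 and 3 were at 0 as well. Gng7 passed the filter on low counts only through abstinence and food-trained libraries, and with counts in only 2 food-trained ones it needed the abstinence libraries to pass, so that a difference between abstinence and maintenance was built in. DESeq2 called both comparisons (adjusted p 8.79e-05 and 0.00124), and nothing is read from these calls, the first for that reason and the second because 2 of the 4 food-trained libraries were at 0 like those of maintenance. Gng3 stood at 104, 122 and 138 CPM at maintenance and 89.0, 77.1, 65.8 and 71.2 CPM at abstinence, next to 84.8 ± 9.05 CPM after food training. The maintenance libraries lay above all libraries of both other stages, with a log2 change of 0.52 (SE 0.22) and an edgeR adjusted p of 0.407 against food training and a log2 change of -0.68 (SE 0.22) and an edgeR adjusted p of 0.357 for abstinence against maintenance. DESeq2 called the second of these (adjusted p 0.0315). Bscl2, which overlaps Gng3, stood at 549 ± 215.0 CPM at maintenance (n = 3) and 394 ± 130.1 CPM at abstinence (n = 4). Its edgeR adjusted p was 0.591 for maintenance against food training and 0.747 for abstinence against maintenance.

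Gnb2 stood at 34.6, 91.9 and 32.7 CPM at maintenance and 147, 64.1, 66.2 and 135 CPM at abstinence. Maintenance replicates 1 and 3 were low and replicate 2 lay within the food-trained range of 90.7 to 141 CPM, giving a log2 change of -0.98 (SE 0.42) and an edgeR adjusted p of 0.405 for maintenance against food training and a log2 change of 0.96 (SE 0.42) and an edgeR adjusted p of 0.491 for abstinence against maintenance. Gnb2 has a GC-rich transcript (60.0% GC), and it was also low in non-dopaminergic replicate 2, at 30.3 CPM against 57.6 to 82.7 CPM in the rest of its group. That library is the one non-dopaminergic library with a GC slope like those of maintenance. With a GC offset per library the log2 fold change of Gnb2 at maintenance was -0.46, and with a term for the 3 maintenance libraries and non-dopaminergic replicate 2 it was 0.25, with the opposite sign. Rgs11, at 56.2% GC, was highest in replicate 2 among the maintenance libraries, with 33.0, 102 and 44.2 CPM at maintenance and 24.2 CPM in non-dopaminergic replicate 2, the lowest of its group. Gnas and Gna11, also GC-rich, went the other way: Gnas (57.8% GC) had a mean of 234 CPM at maintenance against 172 CPM after food training and 243 CPM in non-dopaminergic replicate 2, the highest of its group. Gna11 (57.2% GC) had 102 against 90.1 CPM, and 159.7 CPM in that replicate, also the highest. The change of Rgs11 at maintenance against food training missed the threshold (log2 change -1.02, SE 0.49, edgeR adjusted p 0.444). At abstinence Rgs11 stood at 72.2, 37.8, 71.2 and 126 CPM (against food training, log2 change -0.65, SE 0.44, edgeR adjusted p 0.99997).

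With the same term for these 4 libraries, the log2 fold change of Gng3 at maintenance against food training was -0.014, compared with 0.52 without it, and under this term 0 of all genes passed in that comparison. The term rests on a single non-dopaminergic library, in which Gng3 was also the highest of its group (44.7 against 30.8 to 31.1 CPM) and Gng7 the lowest (7.72 against 13.6 to 17.1 CPM). For dopaminergic nuclei, the property that sets these libraries apart and the maintenance stage cannot be told apart.

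Other genes among the lowest p-values came from alpha subunits and from members near the detection floor. Gnaz stood at 37.5, 28.1, 29.5 and 26.6 CPM in non-dopaminergic libraries and, in dopaminergic ones, at 35.3, 28.2, 24.0 and 24.9 CPM after food training, 35.5, 34.3 and 57.9 CPM at maintenance and 18.3, 57.5, 66.4 and 40.2 CPM at abstinence. The last overlapped the first through abstinence replicate 1, the lowest of all 15 libraries (abstinence against food training, log2 change 0.70, SE 0.38, edgeR adjusted p 0.99997). Gnaq stood at 200.3, 254 and 199.8 CPM at maintenance and 135, 173, 179 and 126 CPM at abstinence, where all 4 libraries were below the 3 of maintenance (abstinence against maintenance, log2 change -0.51, SE 0.27, edgeR adjusted p 0.573). Gnb3, at 0 counts after food training, had 0, 0 and 26 counts at maintenance and 200, 40, 50 and 0 counts at abstinence, at least 19.4-fold higher at abstinence than after food training (edgeR p 0.0190, adjusted p 0.99997). Without abstinence replicate 1 this bound was 6.99-fold. Gng8 had 0, 0 and 15 counts and 0, 0, 20 and 44 counts, at least 4.56-fold higher at abstinence (edgeR p 0.0434, adjusted p 0.99997) and 1.54-fold without abstinence replicate 4. Both genes passed the filter on low counts only through maintenance and abstinence libraries, they are the 2 of 44 with an unadjusted p under 0.05 in this comparison, and nothing is read from them. In both at least 1 abstinence library was at 0 like the food-trained ones. Rgs9 stood at 0.826, 6.91 and 2.29 CPM at maintenance and 2.89, 7.68, 4.56 and 4.33 CPM at abstinence, both without overlap with the food-trained 8.39 to 12.2 CPM. It did not pass in either comparison (maintenance, log2 change -1.70, SE 0.95, edgeR adjusted p 0.523, and abstinence, log2 change -1.15, SE 0.84, edgeR adjusted p 0.99997).

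Gnb1, Gnao1 and Gnai1, which lead or separate their families above, overlapped among the 3 stages. Changes in this paragraph are against food training, for maintenance first and abstinence second. Gnb1 stood at 586, 483 and 603 CPM at maintenance and 601, 608, 514 and 410.4 CPM at abstinence, which overlapped the food-trained libraries (log2 change 0.20, SE 0.22, edgeR adjusted p 0.874, and log2 change 0.13, SE 0.21, edgeR adjusted p 0.99997). Gnao1 stood at 45.2, 117 and 75.5 CPM and 60.1, 60.6, 103 and 51.8 CPM, so that all 11 dopaminergic libraries lay under the lowest non-dopaminergic one (152 CPM). Gnai1 stood at 35.8, 98.2 and 68.6 CPM and 96.9, 105, 121 and 82.4 CPM (log2 change -0.51, SE 0.37, edgeR adjusted p 0.721, and log2 change 0.08, SE 0.34, edgeR adjusted p 0.99997). None of these passed in either comparison. Gnai2 stood at 27.4, 28.3 and 58.0 and 51.4, 29.1, 36.5 and 36.6 CPM (log2 change 0.26, SE 0.47, edgeR adjusted p 0.952, and log2 change 0.27, SE 0.44, edgeR adjusted p 0.99997). Gnas stood at 216, 252 and 235 and 160.4, 169, 226 and 204 CPM (log2 change 0.45, SE 0.26, edgeR adjusted p 0.541, and log2 change 0.14, SE 0.24, edgeR adjusted p 0.99997). Gnal stood at 45.0, 67.0 and 86.2 and 63.1, 114, 109 and 83.6 CPM (log2 change -0.11, SE 0.33, edgeR adjusted p 0.979, and log2 change 0.37, SE 0.30, edgeR adjusted p 0.99997). The Gs genes and Gnai2 also did not pass. Of the Gq and G12 genes, Gna11 stood at 92.3, 83.5 and 129 and 85.5, 119.9, 100.4 and 74.0 CPM, with log2 fold changes of 0.18 (SE 0.33) and 0.07 (SE 0.31). Gna13 stood at 4.54, 91.2 and 45.3 and 56.2, 45.4, 35.1 and 54.9 CPM, with -0.29 (SE 0.64) and -0.26 (SE 0.59). Gna13 had a single low library, maintenance replicate 1 at 4.54 CPM, against 31.5 to 91.2 CPM in the other 14. Gna12 stood at 0.599, 1.21 and 0.243 and 6.42, 1.63, 5.59 and 2.45 CPM, and the gamma gene Gng10 at 9.93, 16.8 and 25.4 and 19.9, 24.4, 5.86 and 19.3 CPM. Their edgeR adjusted p were 0.909 and 1.00 at maintenance and 0.99997 and 0.99997 at abstinence.

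The RGS genes gave no call between stages either. Rgs2 stood at 29.0, 52.7 and 38.6 CPM at maintenance and 36.9, 21.6, 26.5 and 13.3 CPM at abstinence, and Rgs4 at 104, 21.4 and 26.1 CPM and 38.2, 68.2, 57.1 and 38.3 CPM. Rgs4 had a log2 change of 0.94 (SE 0.67) and an edgeR adjusted p of 0.706 at maintenance and a log2 change of 0.93 (SE 0.63) and an edgeR adjusted p of 0.99997 at abstinence, both against food training. Rgs6 stood at 13.7, 38.7 and 30.5 and 48.9, 30.1, 38.5 and 31.7 CPM, Rgs17 at 43.4, 66.9 and 89.2 and 54.8, 48.1, 52.5 and 73.7 CPM, and Rgs19 at 12.5, 20.6 and 16.6 and 23.0, 15.3, 4.94 and 9.99 CPM. All of these overlapped the food-trained libraries. Rgs10 stood at 11.4, 4.64 and 12.0 CPM at maintenance and 11.8, 11.1, 13.4 and 12.8 CPM at abstinence, Rgs12 at 0.227, 7.36 and 6.61 and 0.733, 7.77, 3.74 and 10.7 CPM, and Rgs22 at 4.73, 7.51 and 0 and 0, 2.06, 2.09 and 1.60 CPM. A p that misses the threshold does not show that the levels were equal: the SE of the log2 fold change at maintenance against food training was 0.22 for Gnb1 and 0.34 for Gnao1, but 0.88 for Rgs8 and 2.12 for Rgs5, so that for the last genes even a change of several fold could not be detected.

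**Figure D4:**
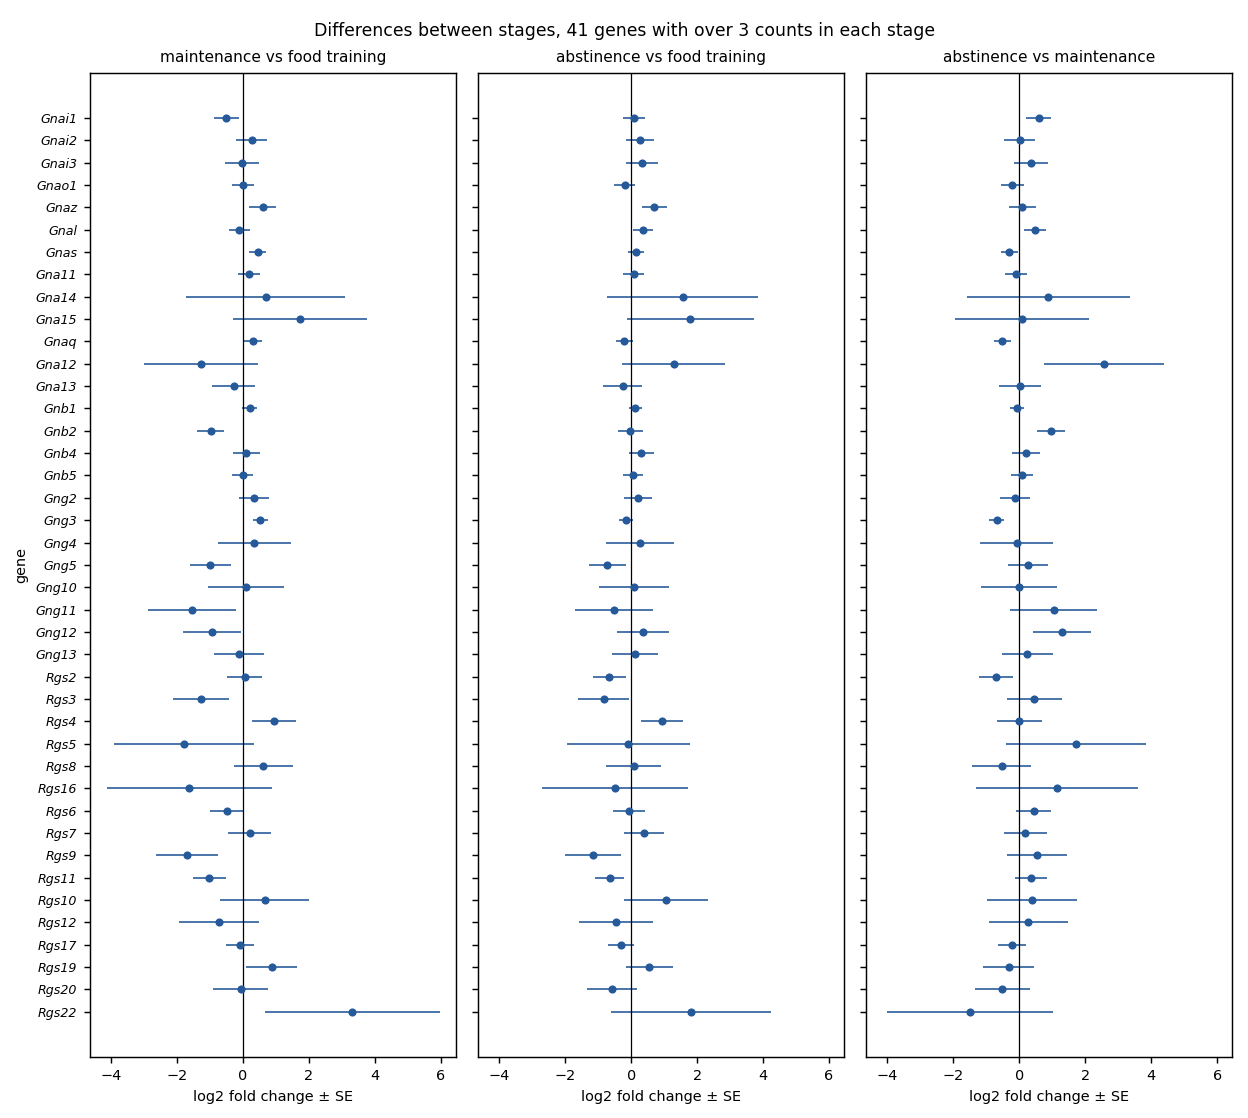
Log2 fold change ± SE (edgeR) between stages in dopaminergic nuclei for the 41 genes with over 3 counts in at least 1 library of every stage, by family from top to bottom. The bars are short for abundant genes such as Gnb1 (0.20, SE 0.22, at maintenance against food training) and long for Rgs5 and Rgs16, and no gene passed the threshold.

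A list of 40 other genes of the route was also counted: chaperones and modulators of alpha and beta-gamma, anchors of R7 RGS proteins, further proteins with RGS domains, receptor kinases, arrestins and direct effectors. Between the populations 1 of the 34 tested was higher and 1 lower (5.88%, against 12.8% of all genes). The one that was higher was Gpr158, a receptor that binds R7 RGS proteins with Gnb5 at the membrane. It stood at 244, 366, 189 and 397 CPM in food-trained dopaminergic and 92.9, 100.5, 91.8 and 144 CPM in non-dopaminergic libraries, without overlap, a log2 change of 1.46 (SE 0.28) with an edgeR adjusted p of 0.00794. Its mean at maintenance and abstinence was 317 and 274 CPM, next to 299 CPM after food training, and it passed in no comparison of stages. The one that was lower was Gpsm3, a modulator of Gi alpha known from blood cells. It had 0 counts in the 4 food-trained dopaminergic libraries and 3.02, 4.12, 1.11 and 2.95 CPM in the non-dopaminergic ones. It was at least 35.6-fold lower (edgeR adjusted p 0.0067). Gpsm3 stood at 0, 3.02 and 0.778 CPM at maintenance and 0, 4.30, 3.49 and 4.01 CPM at abstinence, so that other dopaminergic libraries reached the non-dopaminergic level. Like Gnb3, Gng8 and Rgs14, it passed the filter on low counts only through the non-dopaminergic libraries and had to differ. Between stages 0 of 35 tested genes of this list passed in any of the 3 comparisons by edgeR, where 0.131%, 0% and 0.178% of all genes did. At an unadjusted p under 0.05 there were 2, 2 and 1, against 11.6%, 4.3% and 9.92% of all genes.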

How the data were processed

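The values are whole-number counts per gene symbol, deposited by the authors for 15 libraries made with a low-input cDNA kit. Per the submitters' processing notes, Trim Galore 0.6.7, cutadapt 1.18, STAR 2.7.10a, StringTie 2.1.5 and DESeq2 1.38.3 were used with mm10 (GRCm38). The annotation and the use of strand are not given in the sources used here. Counts that StringTie derives are estimates from coverage, there are no molecular identifiers, and floors of 3 counts cover counting error only. A second deposited table, named as normalized, held the same counts in 10 columns (0 cells differed) and served for that check alone.

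Genes were kept by filterByExpr, scaled by TMM and tested with edgeR 4.0.16 (quasi-likelihood, two-sided, Benjamini-Hochberg over all genes tested, threshold 0.05) in R 4.3.3. The populations were compared in the 8 food-trained libraries and the stages as contrasts in all 11 dopaminergic libraries. The SE is the log2 fold change divided by the root of F. CPM use TMM factors of all 15 libraries. DESeq2 1.42.0, limma 3.58.1 voom, other scalings and filters, a replicate block, GC offsets, other sets of libraries and leaving out each library were alternatives, and a fit without food-trained dopaminergic replicates 2 and 3 was added after the data were seen, as were the fold changes of single genes under the GC offset with the replicate block and under the term for maintenance and non-dopaminergic replicate 2. The code was tested on simulated counts. Transcript lengths and GC came from GENCODE M21, matched by symbol for all 49 genes.

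The genes, the list of 40 and the markers were chosen with earlier results of these data known. Values in every library are given for genes past the threshold, the 4 lowest p between stages and the 2 highest per length in each family. Gna15, Gnb5, Gng11, Rgs5, Rgs8 and Rgs9 were singled out after their values were seen.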

Additional observations from a re-analysis of the deposited data

Results flagged for a closer look

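A library was set apart by Dixon's test in 5 of the 77 groups of 4 libraries examined, for 27 genes, and chance alone sets about 1 in 20 apart. In food-trained dopaminergic replicate 3, Gnb2 stood at 141 CPM against 90.7 to 94.4 CPM in the other 3 libraries, and Rgs11 at 217 against 81.6 to 93.9 CPM. This library had the lowest total count. In non-dopaminergic replicate 2, Gna11 stood at 159.7 against 97.2 to 106 CPM and Gng3 at 44.7 against 30.8 to 31.1 CPM. Without this library the log2 fold change of Gng3 between the populations was 1.43 (edgeR adjusted p 0.0132). Rgs22 stood at 1.62 CPM in food-trained dopaminergic replicate 1, where the other 3 libraries had 0 counts.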

How the results depend on the processing

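Between the populations the number of G protein and RGS genes past the threshold was 7 (2534 of all genes), and 5 to 8 when a library was left out (1900 to 3740). It was 3 with the replicate block (775), 4 with the GC offset and the replicate block together (881), and also 4 with all 15 libraries in one fit (1968). With the replicate block the edgeR adjusted p was 0.0546 for Gnb1, 0.187 for Gnb3, 0.164 for Gng8 and 0.177 for Rgs14. With the GC offset added it was 0.0292 for Gnb1, and the other 3 stayed above 0.05 (0.187, 0.162 and 0.176). In the check of pairing, r across genes was 0.0079 to 0.0718 for same-numbered libraries of the 2 populations and -0.0484 to 0.0348 for their other pairs. These values were small, and the main fits did not take the numbers as pairs. The check does not settle whether same-numbered libraries came from the same mice. Between stages the number was 0 without any one library and under the replicate block. The DESeq2 test gave 1 for maintenance against food training and 2 for abstinence against maintenance. Of 371 refitted fold changes of named genes, 341 kept direction and side of the threshold, 24 lost a call and 3 gained one. The 3 that changed sign all came with the term for maintenance and non-dopaminergic replicate 2: Gnb2 with 0.25 and Gng3 with -0.014 for maintenance against food training, and Gnb2 with -0.27 for abstinence against maintenance. Without food-trained dopaminergic replicates 2 and 3, 8 of these genes passed between the populations (4582 of all genes) and 0 between stages (32, 0 and 55 of all genes). The causes were not tested. Counts were low for Gnb3, Gng8 and Rgs14, Gng7 had libraries at 0 beside dopaminergic libraries with up to 859 counts, and Rgs4, Rgs5 and Rgs8 spread widely between dopaminergic libraries.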
